A study of Mus musculus with 4 samples.

Results

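Ubiquitin-conjugating enzymes, called E2s, stand in the middle of the ubiquitin cascade. An E1 enzyme activates ubiquitin, the E2 takes it over on a catalytic cysteine, and an E3 ligase brings the loaded E2 to a substrate. Some E2s serve ubiquitin-like modifiers such as NEDD8 and ISG15 in place of ubiquitin. In maturing red cells the cascade clears ribosomes and other proteins that the finished cell does not keep, and Ube2o, Ube2l6 and Ube2h are E2 genes known to be induced on that path. Wdr26, the gene labelled as knocked out in this study, encodes a subunit of the CTLH E3 ligase, whose known E2 is the product of Ube2h.

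The genes described here are the rows of the expression table whose symbol is Ube2 followed by a letter, 35 of 17393 genes. The rule also takes in genes that do not encode active conjugating enzymes. Ube2d-ps is a pseudogene by its name that RefSeq lists as a long noncoding RNA. Ube2cbp encodes an E3 ligase that binds the product of Ube2c. Ube2v1 and Ube2v2 encode catalytically inactive partners of the enzyme that Ube2n encodes. RNA came from DS19 mouse erythroleukemia cells, a transformed erythroid precursor line, in 2 libraries labelled wild type and 2 labelled Wdr26-/-. The culture description names 1.5% dimethyl sulfoxide, which drives these cells toward a red cell-like state, without stating if the cells used for RNA were exposed to it. The labels used here do not give how the knockout was made or whether it is 1 clone. They also do not tie the replicates to separate cultures, so the p-values rest on a spread between libraries that may be technical. Levels are FPKM, in which fragment numbers are corrected for the length of the transcript and the depth of the library, and differences are knockout minus wild type on the log2(FPKM + 1) scale.

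No gene of the family passed the test between knockout and wild type. Of the 35 genes, 31 reached 1 FPKM in at least 2 libraries and were tested, and 0 of them had an adjusted p under 0.05 (limma across 10670 genes, Benjamini-Hochberg adjustment), where 0.0937% of all tested genes passed. At an unadjusted p under 0.05 the family also had 0 genes, against 11.4% of all tested genes. The lowest adjusted p in the family was 0.489, for Ube2d1. The differences ran from −0.21 for Ube2g1 to 0.34 for Ube2d1, with a median of 0.025, beside a median of 0.067 over all tested genes. With each library centred on its median the family median turned to −0.052, with quantile normalization to −0.050 and with globin genes left out to −0.046. The median size of the difference, without its sign, was 0.077 in the family and 0.15 over all tested genes. Among genes with a mean of at least 5 FPKM it was 0.077 in the family and 0.14 over all. The 95% interval of each of the 31 differences lay within plus or minus 1 on the log2 scale, with a median width of 0.69. Differences inside a gene's interval cannot be told apart with this spread between libraries. The intervals are not the limit of what the adjusted test could call. Psmb8, outside the family, had a difference of 1.22 (95% interval 0.58 to 1.85) and did not pass (limma adjusted p = 0.2).

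**Figure D1:**
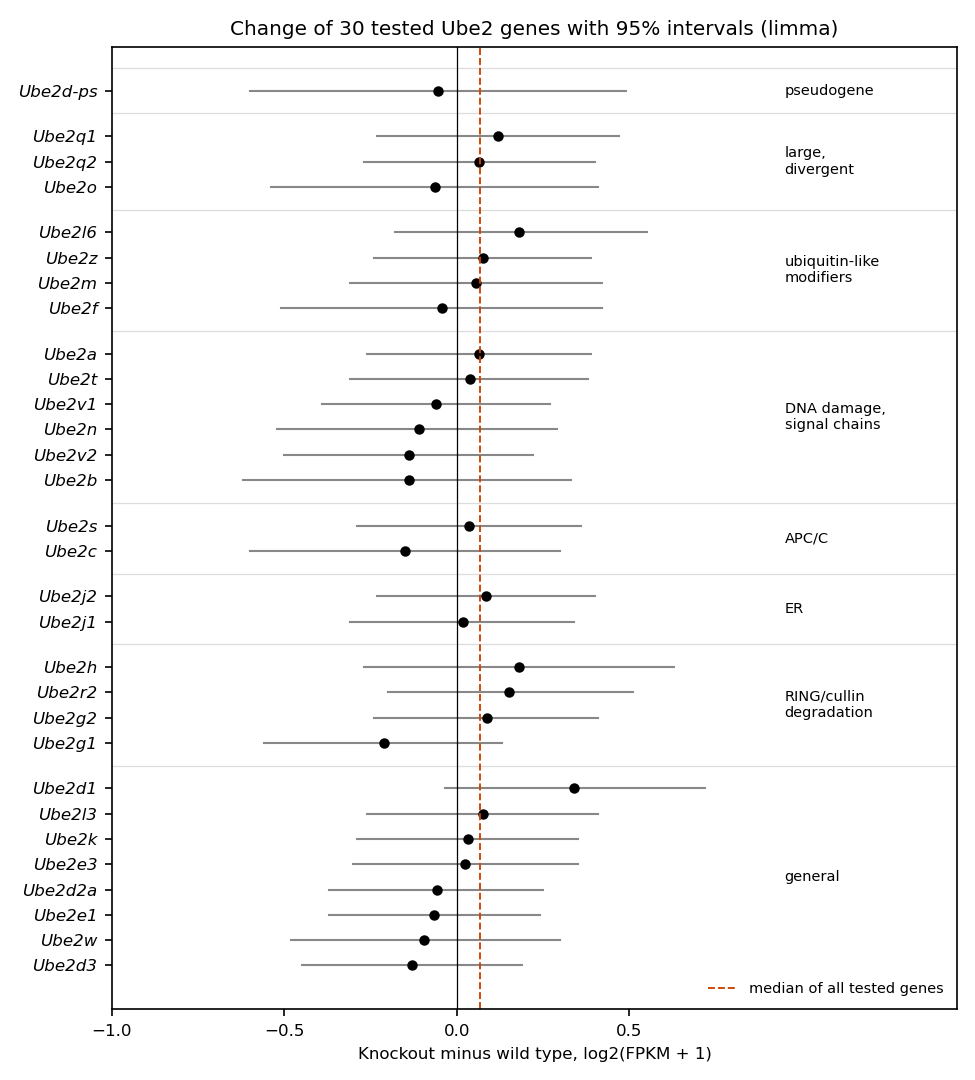
Difference between knockout and wild type on the log2(FPKM + 1) scale (x axis) for 30 of the 31 tested Ube2 genes (y axis, grouped by role), with points for the fitted difference and bars for its 95% interval from limma. Every bar crosses 0, Ube2d1 has the highest point at 0.34 and Ube2g1 the lowest at −0.21, and the dashed line marks the median of all tested genes at 0.067.

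The libraries were first checked against their labels. Wdr26 measured 55.4 and 52.4 FPKM in wild type against 9 and 7.84 FPKM in knockout, a difference of −2.55 (SE 0.14, limma adjusted p = 0.0063). Depth, estimated from the steps in the lowest values, was between 26100000 and 27500000 fragments per library. All 10 erythroid marker genes were present, from 6.70 FPKM for the band 3 gene Slc4a1 in a knockout library to 168691 FPKM for alpha globin in a wild-type library. Of these markers, 6 had both knockout libraries below both wild-type ones (called lower in both from here on) and 0 the reverse (higher in both), beside 10.8% and 29.9% of all tested genes, with a median difference of −0.34. The summed level of 4 lymphoid markers in the table was 0.13 to 0.41 FPKM in wild type and 0.16 to 0.25 FPKM in knockout, with Cd3e at 0. The sum of 6 myeloid markers was 1.65 to 2.72 FPKM and 2.30 to 3.06 FPKM, with Elane at 0, and that of 3 fibroblast markers 0.52 to 0.77 FPKM and 0.52 to 0.76 FPKM. The sum of 6 megakaryocyte markers was 247 to 301 FPKM in wild type and 273 to 284 FPKM in knockout, almost all of it from Itga2b and Pf4, with Gp6 at 0.

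Promoter windows are shown for the E2 of the CTLH ligase (Ube2h), a second gene of red cell maturation (Ube2l6), the gene with the largest difference (Ube2d1) and a cell cycle gene (Ube2c). Each window is from RefSeq on GRCm38.p6 and holds 300 bases, 250 before and 50 after an annotated transcript start, on the gene's own strand. Capitals mark matches on either strand to AGATAA (the GATA factor motif), CCAAT (the CCAAT box), TTTGAA (the cell cycle homology region), GGGCGG (the GC box) and TGACGTCA (the cyclic AMP response element). In the Ube2c window CCAATTGG holds a pair of overlapping CCAAT matches, one on each strand. Ube2h has 2 windows, the first at the start of the gene and the other at an internal start. The start in the Ube2d1 window also lies inside the listed span of its gene, whose outer end is at 71285384.
Ube2h, chr6:30304490-30304789, minus strand: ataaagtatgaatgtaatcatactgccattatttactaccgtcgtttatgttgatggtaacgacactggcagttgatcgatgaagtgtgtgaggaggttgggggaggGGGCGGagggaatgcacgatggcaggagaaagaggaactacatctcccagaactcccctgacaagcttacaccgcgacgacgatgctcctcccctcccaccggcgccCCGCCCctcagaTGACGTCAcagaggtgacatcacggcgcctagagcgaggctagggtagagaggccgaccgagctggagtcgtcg
Ube2h, internal start, chr6:30243754-30244053, minus strand: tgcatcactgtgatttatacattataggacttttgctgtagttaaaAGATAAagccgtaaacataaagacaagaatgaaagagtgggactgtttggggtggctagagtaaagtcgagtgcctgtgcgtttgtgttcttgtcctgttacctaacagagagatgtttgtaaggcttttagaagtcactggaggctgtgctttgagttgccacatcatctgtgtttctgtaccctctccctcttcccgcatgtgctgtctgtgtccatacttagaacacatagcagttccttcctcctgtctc
Ube2l6, chr2:84798578-84798877, plus strand: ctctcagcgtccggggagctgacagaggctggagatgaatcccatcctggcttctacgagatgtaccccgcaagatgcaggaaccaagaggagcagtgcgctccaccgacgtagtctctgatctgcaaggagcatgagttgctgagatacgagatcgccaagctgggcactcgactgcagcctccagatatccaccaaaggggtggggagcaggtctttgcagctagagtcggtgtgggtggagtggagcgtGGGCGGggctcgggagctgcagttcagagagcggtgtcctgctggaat
Ube2d1, chr10:71285213-71285512, minus strand: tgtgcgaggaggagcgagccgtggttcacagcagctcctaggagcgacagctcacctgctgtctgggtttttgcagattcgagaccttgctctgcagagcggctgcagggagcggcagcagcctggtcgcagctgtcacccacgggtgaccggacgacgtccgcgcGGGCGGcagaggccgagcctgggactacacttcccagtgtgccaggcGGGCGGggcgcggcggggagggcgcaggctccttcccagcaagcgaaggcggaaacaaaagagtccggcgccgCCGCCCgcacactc
Ube2c, chr2:164769679-164769978, plus strand: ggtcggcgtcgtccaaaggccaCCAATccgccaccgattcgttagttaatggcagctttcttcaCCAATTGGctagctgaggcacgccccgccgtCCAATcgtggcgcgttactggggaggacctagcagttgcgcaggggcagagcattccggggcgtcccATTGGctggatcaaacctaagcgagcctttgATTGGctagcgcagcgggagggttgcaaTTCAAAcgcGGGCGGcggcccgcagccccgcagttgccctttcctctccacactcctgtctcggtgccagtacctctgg

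The window at the start of Ube2h had 2 GC box matches and 1 match to the cyclic AMP response element, and its only GATA match lay 204 bases before the internal start. Ube2c had 6 CCAAT matches and 1 match to the cell cycle homology region, 29 bases before the start. Over the family, 28 genes had at least 1 window in the RefSeq table, 39 windows in all. Of the 28 genes 24 were tested, so the family windows include some of untested genes. A GC box was found in 74.4% of these windows, in 35.7% of all 32851 windows and in 65.1% of the 10541 windows of tested genes. The GATA motif was found in 2.56%, 11.2% and 6.17% of the same sets, the CCAAT box in 17.9%, 37.4% and 38.5%, the cell cycle homology region in 10.3%, 17.9% and 11.6%, and the cyclic AMP response element in 5.13%, 1.79% and 3.30%. A match is a description of letters in the window and not evidence of binding.

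The family spanned a wide range of levels. Its most abundant genes were Ube2s, at a mean of 275 FPKM over the 4 libraries, and Ube2v1 at 272 FPKM, both at the 98.0th percentile of tested genes. Next came Ube2c at 133, Ube2m at 116, Ube2d3 at 109, Ube2l6 at 95 and Ube2l3 at 94.4 FPKM. The ranges over libraries overlapped for Ube2s and Ube2v1 and for Ube2l6 and Ube2l3, while Ube2v1, at 264 FPKM or more, lay above every library of Ube2c, at most 148 FPKM. The lowest tested genes were Ube2w at 6.34, Ube2v2 at 3.75 and Ube2d-ps at 2.81 FPKM. The summed level of all 35 genes was 1760 and 1710 FPKM in wild type against 1800 and 1670 FPKM in knockout, so the groups overlapped.

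The 4 genes that were not tested were near or at 0. Ube2e2 was listed at 0 in 3 libraries and at 0.04 FPKM in knockout library 2, and Ube2d2b at 0 in the same 3 libraries and at 0.03 FPKM in the other. Ube2ql1 was listed at 0 in both wild-type libraries and at 0.02 FPKM in both knockout libraries. Ube2cbp measured 0.97 and 0.47 FPKM in wild type against 1.40 and 0.45 FPKM in knockout. The close relatives Ube2e1, Ube2e3, Ube2d2a and Ube2d3 were all far above Ube2e2 and Ube2d2b, at 26.4 FPKM or more in every library.

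**Figure D2:**
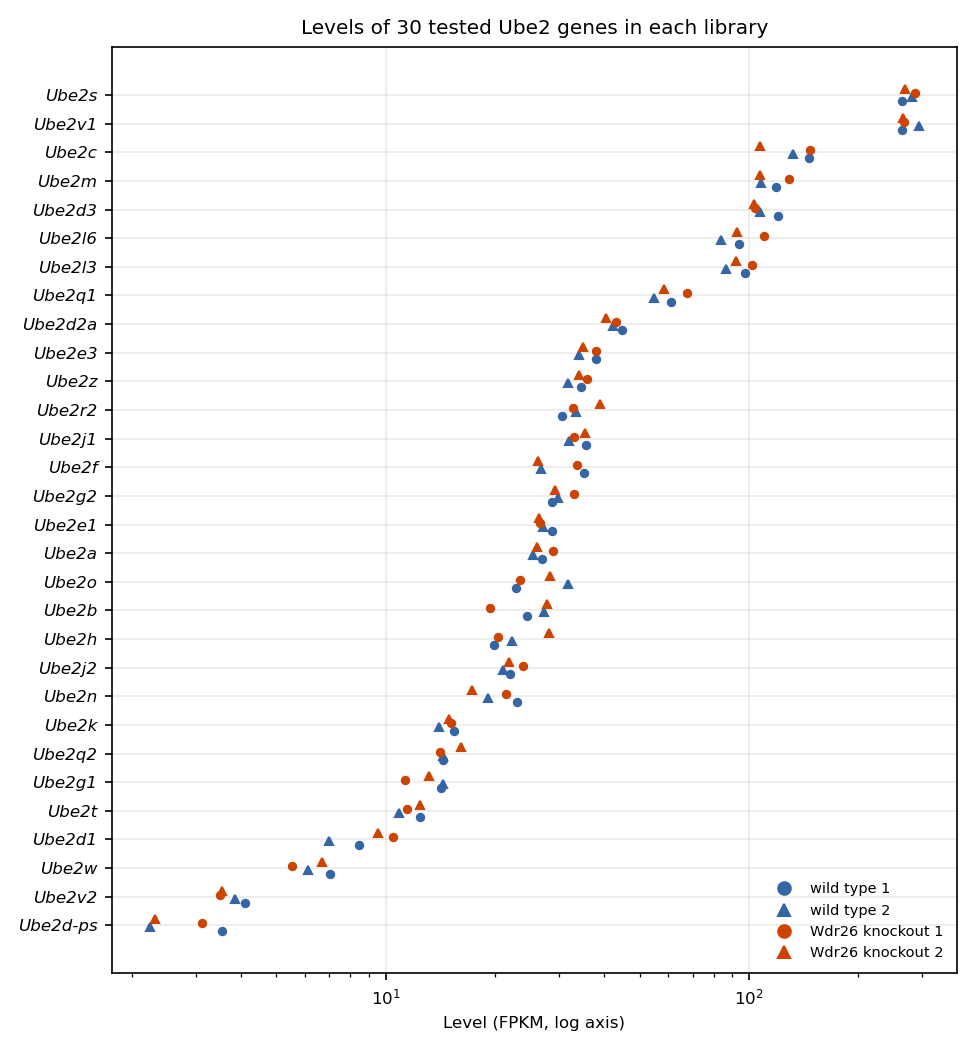
Level of 30 of the 31 tested Ube2 genes (y axis, ordered by mean) in FPKM on a log axis (x axis), 1 point per library, blue for wild type and orange for Wdr26 knockout, circles for library 1 and triangles for library 2. Levels run from 2.25 FPKM for Ube2d-ps to 293 FPKM for Ube2v1, and within most genes the orange and blue points interleave.

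Ube2o encodes a very large enzyme that acts as E2 and E3 at once and is known for removing ribosomal proteins in reticulocytes. The gene (gene ID 217342) lies on chromosome 11, 116537740 to 116581503 (mm10). It stood at 22.9 and 31.8 FPKM in wild-type libraries 1 and 2 and at 23.4 and 28.4 FPKM in knockout libraries 1 and 2. Both libraries numbered 2 were higher than both numbered 1, and the genotypes overlapped. The difference between genotypes was −0.064 (95% interval −0.54 to 0.41, limma adjusted p = 0.947). The differences of library 2 minus library 1 were larger, 0.46 in wild type and 0.27 in knockout. Without wild-type library 2 the difference between genotypes turned to 0.16, and without knockout library 1 to 0.069.

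Ube2l6 encodes the E2 of ISG15, an interferon-induced modifier, and its RNA is also known to accumulate in erythroid cells. The gene (gene ID 56791) lies on chromosome 2, 84798828 to 84810003. It measured 93.8 and 83.8 FPKM in wild type against 110 and 92.5 FPKM in knockout. Knockout library 1 was the highest and wild-type library 2 the lowest, while the other two libraries lay close together, so the groups overlapped. Compared at the same library number, knockout was higher by 0.22 and 0.14. The overall difference was 0.18 (95% interval −0.18 to 0.55, limma adjusted p = 0.743), and it became 0.060 when knockout library 1 was dropped and 0.31 when knockout library 2 was.

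The modifier, E1 and partners of Ube2l6 were low or showed no call. Isg15 itself measured 4.01 and 2.44 FPKM in wild type against 3.06 and 3.65 FPKM in knockout, far below Ube2l6. Uba7, which encodes the E1 of ISG15, measured 46.2 and 60.4 FPKM against 33.9 and 51.6 FPKM (difference −0.33, limma adjusted p = 0.69). Herc6, an ISG15 ligase gene, measured 2.35 and 1.84 FPKM against 1.07 and 1.44 FPKM, lower in both, with no call (limma adjusted p = 0.438). Usp18, which removes ISG15, did not exceed 0.97 FPKM.

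Of 15 ISG15 and interferon genes in the table, 11 were tested and 0 passed, beside 0.0937% of all tested genes. At a limma unadjusted p under 0.05 there were 4, all higher in the knockout, beside 11.4% of all tested genes in either direction. These were Irf1, Psmb8, Psmb9 and Tap1, which code for an interferon response factor, a pair of immunoproteasome subunits and a peptide transporter. Psmb8 measured 3.43 and 5.67 FPKM in wild type against 9.60 and 14.1 FPKM in knockout (difference 1.22, limma adjusted p = 0.2). Ifit1 and Ifit2, strongly interferon-induced in many cells, stayed at or below 0.28 FPKM, and Ifit3 was listed at 0 in every library.

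Ube2h (gene ID 22214, chromosome 6, 30211289 to 30304539) encodes the E2 that works with the CTLH ligase. It measured 19.9 and 22.3 FPKM in wild type against 20.3 and 28.2 FPKM in knockout. Knockout library 2 was the highest, and knockout library 1 lay between the wild-type libraries. The difference was 0.18 (95% interval −0.27 to 0.63, limma adjusted p = 0.815). Without knockout library 2 it was −0.049, and without knockout library 1 it was 0.40 (limma adjusted p = 0.255).

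The ligase partners of Ube2h are the CTLH subunits, with 11 listed genes, all tested. Of these 1, Wdr26 itself, passed, beside 0.0937% of all tested genes. At a limma unadjusted p under 0.05 there were 2, Wdr26 and Ranbp10, beside 11.4% of all tested genes. Higher in both knockout libraries were 3 and lower in both 3, Wdr26 among the latter, beside 29.9% and 10.8% of all tested genes. Maea, which encodes a catalytic RING subunit, measured 75.2 and 74.8 FPKM in wild type against 82.7 and 85.0 FPKM in knockout, higher in both without passing (difference 0.16, limma adjusted p = 0.726). Rmnd5a, the gene of another RING subunit, measured 55.4 and 51.2 FPKM against 48.5 and 59.1 FPKM, with overlapping groups (limma adjusted p = 0.993). Maea and Rmnd5a were therefore above Ube2h in every library. Rmnd5b, a paralog of Rmnd5a, measured 24.9 and 18.5 FPKM against 25.1 and 21.8 FPKM, above Ube2h in both libraries numbered 1 and below it in both numbered 2. Ranbp10, a scaffold gene of the complex, measured 131 and 147 FPKM against 97.2 and 114 FPKM. It was lower in both without passing (difference −0.40, limma unadjusted p = 0.0357 and adjusted p = 0.397).

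These 3 E2 genes of red cell maturation thus showed no called difference, in libraries where 6 of 10 erythroid markers were lower in both knockout libraries without any passing the test, beside 10.8% of all tested genes lower in both. Slc4a1 measured 436 and 285 FPKM in wild type against 48.6 and 6.70 FPKM in knockout (limma adjusted p = 0.166), and the transferrin receptor gene Tfrc 531 and 397 FPKM against 314 and 187 FPKM (limma adjusted p = 0.313). Gata1, at 462 and 489 FPKM and at 525 and 451 FPKM, overlapped. In bulk RNA, fewer cells at a given stage and less RNA per cell cannot be told apart, and the part of the erythroid state in the E2 values was not tested.

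Ube2d1 (gene ID 216080, chromosome 10, 71254980 to 71285384) had the largest difference of the family with all 4 libraries in the fit. It encodes an E2 that serves very many E3 ligases. It measured 8.45 and 6.98 FPKM in wild type against 10.5 and 9.52 FPKM in knockout. Both knockout libraries were above both wild-type libraries, and within each genotype library 1 was the higher one. The knockout mean of 10.0 ± 0.686 FPKM was 1.30 times that of wild type, 7.72 ± 1.04 FPKM (SD, n = 2), a difference of 0.34 (SE 0.15, 95% interval −0.034 to 0.72, limma unadjusted p = 0.0681 and adjusted p = 0.489). With single libraries left out, the lowest value was 0.22, when wild-type library 2 was dropped, and the highest 0.46, when wild-type library 1 was. Without knockout library 1 it was 0.28, smaller in size than those of Ube2h (0.40) and Ube2c (−0.38). These levels correspond to about 236 to 350 fragments per library, which puts the counting error at 6.51% for the lowest library.

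The sister genes of Ube2d1 were more abundant and differed less. Ube2d3 measured 120.0 and 107 FPKM in wild type against 104 and 103 FPKM in knockout, lower in both knockout libraries (difference −0.13, limma adjusted p = 0.799). Ube2d2a measured 44.7 and 42.3 FPKM against 43.1 and 40.4 FPKM, with overlapping groups. The summed level of this subfamily therefore rests mainly on Ube2d3, and Ube2d1 is its smallest expressed coding member. Coding sequences of Ube2d genes are very similar, so the split of reads between them is uncertain.

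Among the 8 tested genes of the general group, which pairs with many ligases, 1 was higher and 2 were lower in both knockout libraries, beside 29.9% and 10.8% of all tested genes. Beside Ube2d1 and Ube2d3 the other gene was Ube2e1, at 28.7 and 27.0 FPKM in wild type against 26.7 and 26.4 FPKM in knockout, a gap between groups of less than 1 FPKM. Ube2l3, which supplies HECT and RBR type ligases, measured 97.3 and 86.6 FPKM against 102 and 92.1 FPKM (difference 0.077, limma adjusted p = 0.907). Ube2e3, Ube2k, Ube2d2a and Ube2w had differences between −0.094 and 0.031. In both genotypes, 7 of these 8 genes had less in library 2 than in library 1, beside 46.5% of all tested genes.

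The group that builds degradative chains with cullin and other RING ligases held 4 genes, all tested. Ube2g1, which extends chains on substrates of cullin ligases, had the largest negative difference of the family with all 4 libraries, −0.21 (95% interval −0.56 to 0.13, limma adjusted p = 0.657). It measured 14.2 and 14.4 FPKM in wild type against 11.3 and 13.1 FPKM in knockout, lower in both knockout libraries. Ube2r2, a relative of the cell cycle E2 Cdc34, measured 30.6 and 33.4 FPKM against 32.8 and 38.8 FPKM (difference 0.15, limma adjusted p = 0.784). Knockout library 2 was again the highest, and the groups overlapped. Ube2g2, which acts in degradation at the endoplasmic reticulum, had a difference of 0.088, and the reticulum-anchored Ube2j1 and Ube2j2 had differences of 0.017 and 0.084, each with overlapping groups.

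Ube2c and Ube2s are the E2s of the anaphase-promoting complex (APC/C), the former starting ubiquitin chains on mitotic substrates and the latter extending them. Ube2c (gene ID 68612, chromosome 2, 164769929 to 164772902) measured 146 and 133 FPKM in wild type against 148 and 107 FPKM in knockout. Knockout library 2 was the only one set apart, and the difference of −0.15 (95% interval −0.60 to 0.30, limma adjusted p = 0.861) became 0.083 without it and −0.38 without knockout library 1. Ube2s measured 263 and 280.5 FPKM against 287 and 269 FPKM, with a difference of 0.034 (limma adjusted p = 0.961) and overlapping groups. That difference changed sign to −0.043 with median-centred values and to −0.038 with globin genes left out. Among 16 listed APC/C genes 0 passed, beside 0.0937% of all tested genes. Of these, 3 were higher and 1 was lower in both knockout libraries, beside 29.9% and 10.8% of all, and the median difference was 0.049, beside 0.067 over all.

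In the group of DNA damage and signalling chains, Ube2n and its catalytically inactive partners Ube2v1 and Ube2v2 build chains that signal without sending a protein to the proteasome. Ube2v1 measured 264 and 293 FPKM in wild type against 268 and 266 FPKM in knockout (difference −0.060, limma adjusted p = 0.925). Ube2v2 measured 4.11 and 3.86 FPKM against 3.49 and 3.54 FPKM, lower in both knockout libraries by a small margin (difference −0.14, limma adjusted p = 0.811). Ube2n, at 22.9 and 19.1 FPKM and at 21.4 and 17.3 FPKM, was thus much less abundant than Ube2v1 in every library.

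Ube2a and Ube2b encode the mammalian Rad6 enzymes, which ubiquitinate histones and the replication clamp. Ube2b measured 24.5 and 27.3 FPKM in wild type against 19.4 and 27.9 FPKM in knockout. The knockout libraries were the lowest and the highest of the 4, and the difference of −0.14 (limma adjusted p = 0.87) turned to 0.11 without knockout library 1. Ube2b overlaps Cdkl3 in the gene table, and the sources used here do not say whether reads were counted by strand, so its value is uncertain. The same limit holds for Ube2e1, which overlaps Nkiras1, Ube2d-ps, which overlaps Urgcp, and the untested Ube2d2b, which overlaps Evi5. It also holds where a gene overlaps a noncoding RNA gene, as Ube2d3, Ube2v1, Ube2e3 and Ube2k do, among others. Ube2a and Ube2t, the E2 of the Fanconi anemia pathway, had differences of 0.063 and 0.037.

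Ubiquitin-like modifiers other than ISG15 have E2 genes of their own. The NEDD8 enzyme gene Ube2m measured 118 and 108 FPKM in wild type against 129 and 107 FPKM in knockout (difference 0.057, or −0.020 with median-centred values, limma adjusted p = 0.935). Ube2f, the other NEDD8 enzyme gene, measured 35.1 and 26.8 FPKM against 33.7 and 26.2 FPKM, with the libraries sorted by number and not by genotype. Ube2z, whose product is loaded by the E1 enzyme that Uba6 encodes, had a difference of 0.075. Ube2m, Ube2f, Ube2z and Ube2l6 each had less in library 2 than in library 1, whichever the genotype. The same held for 46.5% of all tested genes.

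In the divergent group, Ube2q1 measured 61.0 and 54.6 FPKM in wild type against 67.4 and 58.3 FPKM in knockout (difference 0.12, limma adjusted p = 0.85), and at each library number knockout was the higher. Ube2q2 had a difference of 0.064. Together with Ube2o, these 3 tested genes all had overlapping groups.

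Over the family, 1 of 31 tested genes was higher in both knockout libraries and 4 were lower in both, while 29.9% and 10.8% of all tested genes were. The remaining 26 overlapped, so 5 of 31 did not, beside 40.7% of all tested genes. With each library centred on its median, 1 was higher and 9 were lower in both, beside 19.9% and 20.1% of all tested genes. Relative to the median difference of all tested genes, 9 of 31 lay above it and 22 below it. These counts describe the family, and no test of the family as a set was made.

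Library number separated the members more than genotype did. For 22 of 31 genes the mean difference between library 2 and library 1 was larger in size than the difference between knockout and wild type, and for 9 it was smaller. The median size was 0.11 by number and 0.077 by genotype, beside 0.16 and 0.15 over all tested genes. These values are not centred, and over all tested genes the median of library 2 minus library 1 was −0.095 in wild type and −0.04 in knockout. Whichever the genotype, library 2 had less than library 1 of 18 genes and more of 6, beside 46.5% and 24.0% of all tested genes. The genes higher in library 2 were Ube2o, Ube2h, Ube2b, Ube2r2, Ube2g1 and Ube2q2. Over the 31 genes the SD of the log2 difference was 0.176 between the wild-type libraries and 0.229 between the knockout libraries. Comparing knockout with wild type at number 1 gave an SD of 0.152 and at number 2 an SD of 0.150, and the corresponding values over all tested genes were 0.268, 0.360, 0.312 and 0.333. The labels do not say what the numbers stand for.

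**Figure D3:**
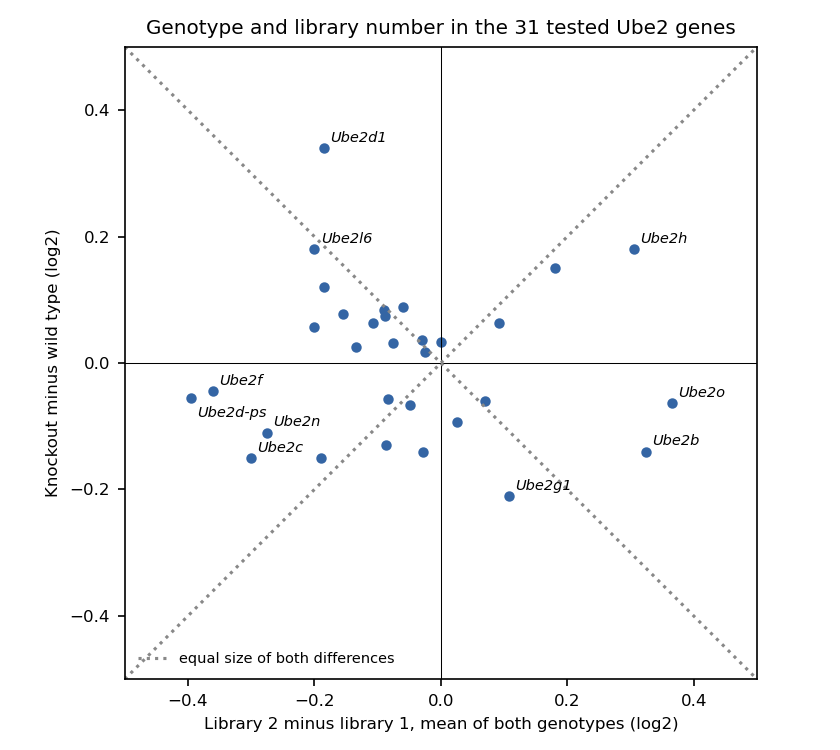
Each point is one of the 31 tested Ube2 genes, with the library 2 minus library 1 difference averaged over both genotypes (x axis, log2) and the knockout minus wild type difference (y axis, log2). Dotted diagonals mark equal sizes, and 22 genes lie nearer the horizontal axis, among them Ube2o, Ube2b, Ube2f and Ube2c, while Ube2d1 lies above the diagonals.

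Genes on both sides of the E2 step were examined for comparison. Of 9 E1 genes, all tested, 0 passed, beside 0.0937% of all tested genes. Both knockout libraries exceeded both wild-type ones for 2 genes and lay below them for 2, beside 29.9% and 10.8% of all, with a median difference of −0.016, beside 0.067. Uba1, the main ubiquitin E1 gene, measured 213 and 192 FPKM in wild type against 262 and 229 FPKM in knockout, the highest E1 difference at 0.28 (limma adjusted p = 0.562). Uba6, whose product loads that of Ube2z, was lower in both knockout libraries with a difference of −0.17.

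Of 11 genes for ubiquitin and ubiquitin-like modifiers 0 passed, with 4 higher and 0 lower in both knockout libraries, beside 29.9% and 10.8% of all tested genes. Their median difference of 0.066 was close to the 0.067 over all tested genes. The polyubiquitin gene Ubb was among the 4. Ubb measured 1057 and 1134 FPKM in wild type against 1210.2 and 1266 FPKM in knockout (limma adjusted p = 0.753). Among 6 tested E2 genes with other symbols 0 passed, beside 0.0937% of all tested genes. The largest difference in this list was that of Cdc34, the E2 of SCF ligases. Cdc34 measured 88.8 and 88.6 FPKM in wild type against 82.1 and 59.0 FPKM in knockout (difference −0.35, limma adjusted p = 0.565), lower in both but most so in knockout library 2.

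**Figure D4:**
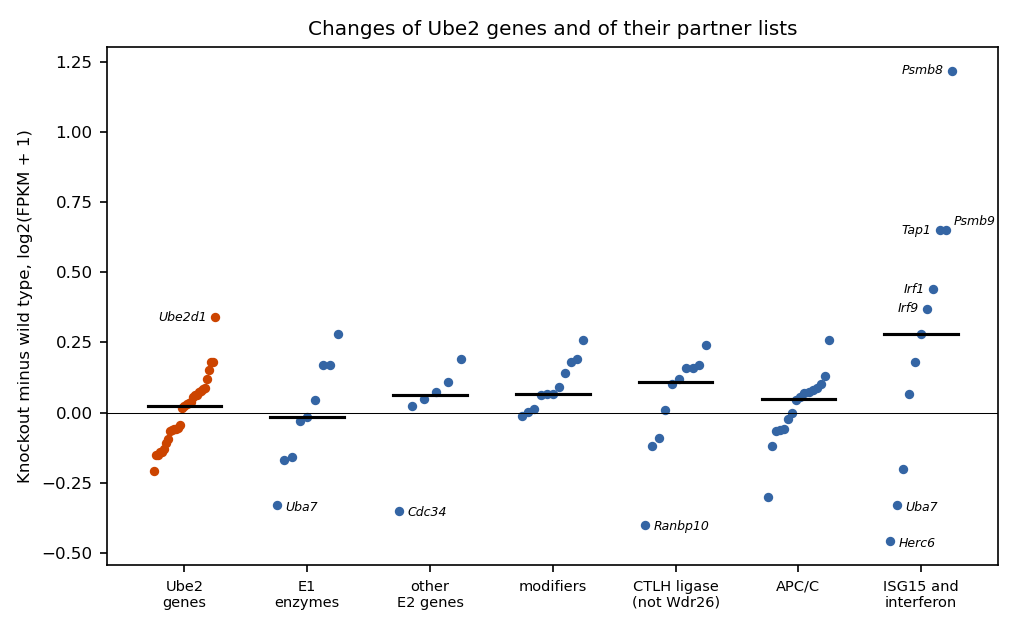
Difference between knockout and wild type on the log2(FPKM + 1) scale (y axis) for the tested Ube2 genes (orange) and for the tested genes of each partner list (blue, x axis), with 1 point per gene and a bar at each median. Ube2 genes lie between −0.21 and 0.34, and Psmb8 at 1.22 is the highest point of the interferon list. Wdr26 is left out of the CTLH list.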

How the data were processed

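RNA depleted of ribosomal RNA was sequenced from 2 wild-type and 2 Wdr26 knockout libraries, per the labels' protocols. The authors deposited 1 table, whose header gives no unit. Its values were taken as FPKM because their products with transcript length added up to 1.02e+09 to 1.04e+09 in each library. The submitters' processing notes name TopHat2 and mm10 without version or role, and the sources used here do not give the program that computed the FPKM. For 9 of the 35 genes the deposited FPKM also draws on transcripts assembled from the reads. Among them is Ube2d-ps, for which 4 of 5 transcripts were assembled. Coordinates came from RefSeq (GRCm38.p6, which is mm10), where all 35 gene IDs matched, and lengths from GENCODE M21. Fragment numbers are approximate and take effective length as 200 bases below transcript length.

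Genes that reached 1 FPKM in 2 or more libraries were compared as log2(FPKM + 1) with limma 3.58.1 in R 4.3.3 (mean-variance trend, no covariates), with Benjamini-Hochberg adjustment over all tested genes and a threshold of 0.05. Adding 1 understates changes of low genes. No exact permutation test was made on single genes, since 0.333 is the smallest p that 2 against 2 allows. The procedure was tested on simulated data with differences larger than any in the family and without an effect of library number. That run gives no measure of power for differences as small as those of the family. Tables and figures were made with pandas 2.3.3 and matplotlib 3.10.9.

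The members and gene lists were chosen with earlier results of these data known. Values per library are given for Ube2o, Ube2l6 and Ube2h, for the 5 largest differences in each direction, for the 8 most abundant genes and for genes with an unadjusted p under 0.05 (0 were found). Some genes, 1 of them a Ube2 gene, are not reported here, although counts and medians over lists include them. Other genes with values were chosen after their values were seen. Alternatives were median-centred and quantile-normalized values, no filter, a mean of at least 5 FPKM, no trend, a pseudocount of 0.1, library number as a block, leaving out 11 globin genes with totals rescaled, and leaving out each library. For both kinds of leaving out, the tested genes were kept as chosen on all libraries. For globin genes this was settled after a first run with the filter applied again had been seen, and fits with the filter applied again, for both kinds, were added after seeing the data.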

Additional observations from a re-analysis of the deposited data

How the results depend on the processing

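No Ube2 gene passed under any alternative but the replicate block. The count of Ube2 genes past the threshold was 0 (range 0 to 0) with each library left out in turn, and the median difference of the family lay between −0.033 (wild-type library 2 left out) and 0.092 (wild-type library 1 left out). Over all tested genes 10 passed, against 0 without the filter on low values (1957 at an unadjusted p under 0.05), 2 when a mean of 5 FPKM or more was required, and 3 (without wild-type library 1) to 738 (without knockout library 1) with single libraries left out and the tested genes kept. In fits added after seeing the data, with the filter applied again to the 3 libraries, limma called 0 genes when either wild-type library was dropped (574 at an unadjusted p under 0.05 in each case), 720 without knockout library 1 and 314 without knockout library 2. With globin genes left out 8 passed, and 9 with the filter also applied again. The Ube2 genes with groups that did not overlap numbered 5 of 31, beside 40.7% of all tested genes. They numbered 10 with median-centred values, beside 19.9% of all tested genes higher and 20.1% lower in both. With quantile normalization they also numbered 10, beside 2209 genes higher and 2148 lower of 10670 tested. With 1 library left out they numbered 16 to 19, where a lone library has no spread of its own and overlap is rarer by construction. Without wild-type library 1 they numbered 18, beside 5347 of 10670 tested genes higher and 1646 lower. Without knockout library 1 they numbered 16, beside 4776 higher and 3287 lower.

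The libraries of the 2 genotypes share numbers, but the labels state no pairing. Deviations of same-numbered libraries correlated across the 10670 tested genes (r = 0.606, a value across genes, which are not independent replicates) and across the 31 Ube2 genes (r = 0.65). With the library number as a block 1863 genes passed, 17.5% of those tested, and 1 Ube2 gene, Ube2d1 (0.34, limma adjusted p = 0.0449). That fit leaves 1 residual degree of freedom per gene. Under the other alternatives the adjusted p of Ube2d1 lay between 0.424 and 1 and its difference between 0.22 and 0.46.

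Of 271 values of the 16 genes named by rule under alternatives, 241 kept direction and side of the threshold, and 29 changed sign, none with an adjusted p below 0.877. With median-centred values the sign changed for Ube2s (−0.043), Ube2m (−0.020) and Ube2l3 (−0.00013), and with globin genes left out for Ube2s (−0.038) and Ube2m (−0.015). With single libraries left out the differences ran from −0.29 to 0.16 for Ube2o (0.069 without knockout library 1), −0.049 to 0.40 for Ube2h, −0.38 to 0.083 for Ube2c, −0.39 to 0.11 for Ube2b, −0.012 to 0.080 for Ube2s, −0.14 to 0.015 for Ube2v1, −0.074 to 0.19 for Ube2m (−0.011 without wild-type library 2) and −0.0064 to 0.16 for Ube2l3. The cause of these changes was not tested. Depth limits mainly Ube2d-ps and Ube2w, whose lowest libraries held about 99.3 and 99.6 fragments, a counting error of 10.0%.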
